A study of Malus domestica with 18 samples.

Results

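The genes Cpn60a and Cpn60b, which encode chaperonins of the Hsp60 family, were followed in the embryonic axes of aged apple (Malus domestica) seeds. They were taken by name from the deposited matrices and are 2 of the 18 target genes measured, beside the 2 reference genes Sar1 and Pdi. Dormant seeds were aged at 33 °C for 7, 14 or 21 days, and the isolated embryos were either exposed to nitric oxide (NO) vapours for 3 h (NO-treated) or left without fumigation (control). All embryos were then cultured on water for 48 h before the axes were taken for RT-qPCR, with 3 biological replicates in each of the 6 groups and 18 samples in all. The labels name no control exposed to vapour without NO and no unaged seeds, so every group carries some aging, and the youngest is the 7-day one. Each sample was a pool of whole axes, in which fewer cells of a kind and less transcript per cell cannot be told apart. No marker of a cell type was among the genes measured, so the labelled tissue was not checked by markers.

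Chaperonins of this family form a barrel-shaped complex in which newly imported or unfolded proteins fold in a closed chamber, and the energy comes from ATP. The plant mitochondrial form, with its small co-chaperonin as a lid, acts on proteins after their import into the mitochondrial matrix, and its transcripts are known to respond to heat. Plastids hold a related chaperonin with alpha and beta subunits.

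By the protein matches in the study's primer list, both genes are of the mitochondrial type, Cpn60a by its match to Arabidopsis chaperonin CPN60 and Cpn60b by its match to the Arabidopsis protein CPN60-like 2. The letters a and b therefore do not stand for the plastid alpha and beta subunits. Cpn60a is listed with 2 apple gene models, MDP0000859313 and MDP0000235765, and Cpn60b with 1, MDP0000185591. None of the 3 models matched the RefSeq gene table used here, so no position in the genome is given. The primers are shown because they alone define which transcript each value counts, and the 5 bases at the 3′ end, where extension starts, are in capitals.
Cpn60a forward: acatctgaagaaatagcTCAGG
Cpn60a reverse: cattccttcaacgaccTCCAA
Cpn60b forward: gcagagcattgatgataAGCAC
Cpn60b reverse: gtgttcccatcagcaaCAGTA
The forward primers are 22 and the reverse primers 21 bases long. No run of more than 4 bases was shared between a Cpn60a and a Cpn60b primer on either strand. Only the primers were compared with each other, and whether a pair also amplifies the transcript of the other gene was not tested. Whether the Cpn60a pair amplifies both of its listed gene models equally was not tested.

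The deposited quantification cycle (Cq) falls by 1 with each doubling of template. The mean cycle of Sar1 and Pdi lay between 23.2 and 24.3 in the 18 samples. It was 23.3 ± 0.0914 in NO-treated axes and 23.5 ± 0.135 in control axes at 7 days, 24.1 ± 0.0607 with NO and 24.2 ± 0.0876 in the control at 14 days, and 24.0 ± 0.183 with NO and 24.0 ± 0.0328 in the control at 21 days (SD, n = 3 each). The reference genes thus came up later after 14 and 21 than after 7 days of aging. They also moved apart, since Pdi took 24.4 ± 0.158 cycles at 7 days, 25.2 ± 0.0692 at 14 days and 25.2 ± 0.111 at 21 days in control axes, and Sar1 took 22.7 ± 0.112, 23.3 ± 0.131 and 22.8 ± 0.176 cycles at the same times (SD, n = 3 each). For Cpn60a and Cpn60b the deposited relative expression differed from what these cycles give by between -0.20 and 0.63 on the log2 scale in single samples. This offset averaged 0 in each control, since both scales are set to the control of the day. In NO-treated axes it averaged 0.29 for Cpn60a and 0.34 for Cpn60b at 7 days. The averages were 0.076 and 0.071 at 14 days, and 0.22 and 0.23 at 21 days. The deposited scale thus puts the NO effect higher than the cycles do, by an amount that varies with the day. The offset was nearly the same for both genes (at most 0.0594 apart in any sample), so it nearly cancels in their ratio. The source of this offset was not tested.

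The first comparison asked whether NO changed the transcripts within an aging time, on the deposited relative expression, a ratio whose mean is about 1 in each day's own control. Cpn60a was higher with NO in axes of seeds aged for 14 days, at a mean of 1.57 ± 0.0671 (SD, n = 3), and Cpn60b was lower with NO in axes of seeds aged for 7 days, at a mean of 0.780 ± 0.107 (SD, n = 3). None of the other 4 differences passed the test, which was limma over all 18 samples with p-values adjusted over the 18 genes and a threshold of 0.05.

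After 14 days of aging, the relative expression of Cpn60a was 1.62, 1.59 and 1.50 in NO-treated axes, against 1.12, 0.933 and 0.956 in control axes. The lowest NO-treated sample exceeded the highest control. The means were 1.57 ± 0.0671 with NO and 1.0 ± 0.103 in the control (SD, n = 3 each), a log2 fold change of 0.65 (standard error, SE, 0.11, limma adjusted p = 3.4e-05). Of the 18 genes, 44.4% passed the test in this comparison. The call was kept under each alternative run, with log2 fold changes between 0.44 and 0.73.

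The relative expression of Cpn60b in the same samples was 1.27, 1.11 and 0.954 in NO-treated axes, against 1.02, 0.957 and 1.03 in control axes, and the groups overlapped. The log2 fold change was 0.14 with a 95% interval of -0.13 to 0.41 (limma adjusted p = 0.392), and it was -0.061 when Sar1 alone was the reference and 0.039 to 0.24 without single samples. At 14 days 1 of the 2 chaperonin genes was therefore called.

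After 7 days of aging, the relative expression of Cpn60b was 0.668, 0.880 and 0.794 in NO-treated axes, against 1.07, 1.03 and 0.908 in control axes. Each NO-treated sample lay below all controls. The means were 0.780 ± 0.107 with NO and 1.0 ± 0.0835 in the control (SD, n = 3 each), a log2 fold change of -0.37 (SE 0.13, limma adjusted p = 0.0288), beside 33.3% of the 18 genes called at this time. On the deposited scale the call rested on single samples. The limma adjusted p was 0.180 without NO replicate 1, 0.120 without control replicate 1 and 0.0908 without control replicate 2 of that day. On untransformed values it was also lost (adjusted p = 0.0612). From the cycles the log2 difference was larger and called under each normalizer. It was -0.71 against Sar1 and Pdi (limma adjusted p = 2.2e-04), -0.59 with Sar1 alone (adjusted p = 0.00364) and -0.82 with Pdi alone (adjusted p = 6.4e-05). With no reference gene it was -0.52 (adjusted p = 7.1e-04), and centred on the 18 genes -0.54 (adjusted p = 1.4e-04). Single samples were left out on the deposited scale only.

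Cpn60a at 7 days stood at 1.22, 1.11 and 1.13 in NO-treated axes and at 1.08, 1.06 and 0.874 in control axes. The NO-treated values were all above the controls, but the difference did not pass the test (log2 fold change 0.20, 95% interval -0.031 to 0.44, limma adjusted p = 0.154). Its direction depended on the normalizer, with -0.088 from the cycles against Sar1 and Pdi and -0.20 against Pdi alone, and it was 0.11 without control replicate 3 of that day.

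After 21 days of aging neither gene was called, while 44.4% of the 18 genes were. Cpn60a had a relative expression of 1.22, 1.19 and 1.05 in NO-treated axes and of 1.09, 0.944 and 0.968 in control axes, a log2 fold change of 0.20 (95% interval -0.032 to 0.44, limma adjusted p = 0.132). For Cpn60b the values were 1.15, 1.11 and 0.959 with NO and 1.11, 1.02 and 0.886 in the control, a log2 fold change of 0.10 (95% interval -0.17 to 0.37, limma adjusted p = 0.569). NO-treated and control axes overlapped for both genes. For Cpn60b the difference was 0.014 without control replicate 3 and up to 0.18 without other single samples. From the cycles the differences were -0.021 for Cpn60a and -0.13 for Cpn60b, and centred on the 18 genes of each sample they were 0.52 (adjusted p = 1.3e-04) and 0.41 (adjusted p = 0.00145). Centring shifted both genes by the same 0.54 from the mean of Sar1 and Pdi, so these are not separate results. The shift was 0.11 with Sar1 alone and -0.11 with Pdi alone.

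**Figure D1:**
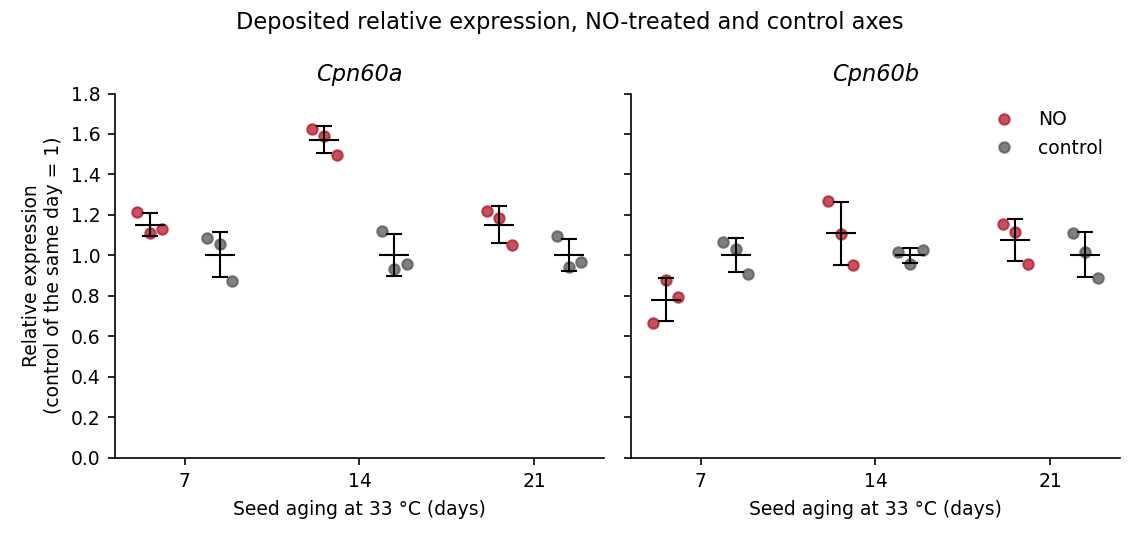
Deposited relative expression (no unit, the mean control of the same day is about 1) of Cpn60a and Cpn60b against days of seed aging. Points are the 3 biological replicates of NO-treated (red) and control axes (grey), and black bars are the mean ± SD; Cpn60a at 14 days lies between 1.50 and 1.62 with NO, above controls of 0.933 to 1.12, and Cpn60b at 7 days lies below its controls.

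Whether the NO effect differed between aging times was tested by interaction contrasts of the same fit. For both genes the effect was higher at 14 than at 7 days, by 0.45 for Cpn60a (SE 0.16, limma adjusted p = 0.0201) and by 0.51 for Cpn60b (SE 0.18, limma adjusted p = 0.0201), in a contrast in which 61.1% of the 18 genes were called. The effect on Cpn60a was 0.65 at 14 days and 0.20 at 7 days, and that on Cpn60b was 0.14 at 14 days and -0.37 at 7 days. Both calls were lost with Sar1 alone (adjusted p = 0.142 for Cpn60a and 0.0579 for Cpn60b) and also without single samples, where the highest adjusted p was 0.0588 for Cpn60a and 0.0716 for Cpn60b. Against Sar1 and Pdi the cycles kept both calls. The differences were 0.66 for Cpn60a (limma adjusted p = 0.00638) and 0.78 for Cpn60b (limma adjusted p = 0.00262). In the same order, the calls were also kept with Pdi alone (0.91 and 1.02), with no reference gene (0.58 and 0.69) and centred on the 18 genes (0.57 and 0.69).

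Between 21 and 14 days the NO effect on Cpn60a fell by 0.45 (SE 0.16, limma adjusted p = 0.0232), and that on Cpn60b differed by -0.039 (95% interval -0.42 to 0.34, adjusted p = 0.882), with 50.0% of the genes called. The Cpn60a call was lost with Sar1 alone (adjusted p = 0.228), centred on the 18 genes (adjusted p = 0.402) and without single samples (adjusted p up to 0.0663). It was kept from the cycles against Sar1 and Pdi (-0.595, limma adjusted p = 0.0144). Pdi alone (-0.83, adjusted p = 0.00108) and no reference gene (-0.69, adjusted p = 0.00231) also kept it. Between 21 and 7 days, where 16.7% of the genes were called, the NO effect differed by -0.0011 for Cpn60a (adjusted p = 0.995) and by 0.47 for Cpn60b (95% interval 0.089 to 0.85, adjusted p = 0.0538), just short of a call. For Cpn60b this difference was called with a replicate block (adjusted p = 0.0453) and from the cycles against Sar1 and Pdi (adjusted p = 0.0401).

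The second comparison was the course over seed aging, for which the levels were derived from the cycles against the mean of Sar1 and Pdi, taking 1 cycle as a doubling, with the mean control of the 7-day seeds as 1. Both chaperonin genes were lowest after 14 days, in control and in NO-treated axes alike. On this scale both were higher again at 21 days, when Cpn60a did not differ from its 7-day level by the test and Cpn60b in control axes was below it. Every 14-day sample of either gene was lower than each sample of the same gene and treatment at 7 or 21 days.

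In control axes the level of Cpn60a was 1.21, 0.859 and 0.965 at 7 days, 0.419, 0.438 and 0.379 at 14 days, and 1.04, 1.10 and 1.04 at 21 days. The 14-day samples stood apart, and those of 21 days lay within the 7-day range. The log2 fold change was -1.28 at 14 against 7 days (SE 0.14, limma adjusted p = 8.0e-09) and 1.37 at 21 against 14 days (SE 0.14, limma adjusted p = 1.7e-09). At 21 against 7 days it was 0.089 (95% interval -0.21 to 0.39, limma adjusted p = 0.575). Most of the 18 genes moved between these times, since 77.8% were called at 14 against 7 days, 88.9% at 21 against 14 days and 72.2% at 21 against 7 days.

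The level of Cpn60b in control axes was 1.20, 0.836 and 0.999 at 7 days, 0.352, 0.422 and 0.378 at 14 days, and 0.625, 0.711 and 0.559 at 21 days. The 3 times did not overlap. The log2 fold change was -1.39 at 14 against 7 days (SE 0.15, limma adjusted p = 6.0e-09), 0.72 at 21 against 14 days (SE 0.15, limma adjusted p = 9.3e-05) and -0.67 at 21 against 7 days (SE 0.15, limma adjusted p = 2.6e-04). Centred on the 18 genes, the last of these was -0.20 (adjusted p = 0.0870) and no longer called.

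In NO-treated axes the level of Cpn60a was 1.18, 0.929 and 0.759 at 7 days, 0.602, 0.647 and 0.590 at 14 days, and 0.982, 1.12 and 1.05 at 21 days. It was lower at 14 than at 7 days by 0.62 on the log2 scale (log2 fold change -0.62, SE 0.14, limma adjusted p = 4.3e-04) and higher at 21 than at 14 days (log2 fold change 0.78, SE 0.14, limma adjusted p = 1.8e-05). At 21 against 7 days the log2 fold change was 0.16 (95% interval -0.14 to 0.45, limma adjusted p = 0.346).

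Cpn60b in NO-treated axes stood at 0.627, 0.720 and 0.511 at 7 days, 0.442, 0.421 and 0.348 at 14 days, and 0.549, 0.613 and 0.561 at 21 days. These samples were all below the lowest 7-day control, at 0.836. The log2 fold change was -0.61 at 14 against 7 days (SE 0.15, limma adjusted p = 6.2e-04), 0.51 at 21 against 14 days (SE 0.15, limma adjusted p = 0.00222) and -0.096 at 21 against 7 days (95% interval -0.40 to 0.21, limma adjusted p = 0.524). Among the 18 genes, 66.7% were called at 14 against 7 days, 94.4% at 21 against 14 days and 77.8% at 21 against 7 days in NO-treated axes.

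**Figure D2:**
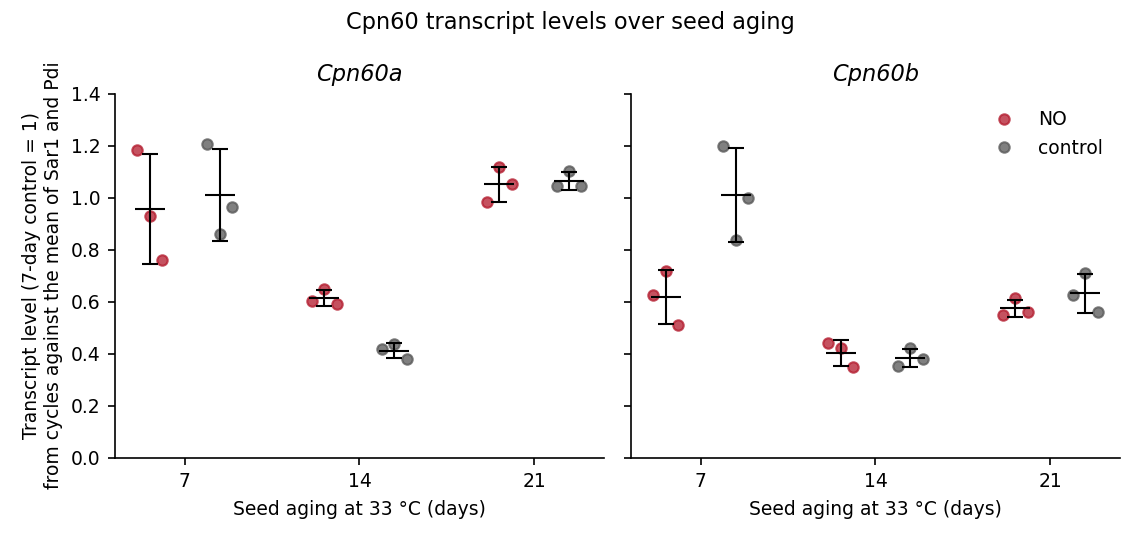
Transcript level (no unit, from the cycles against the mean of Sar1 and Pdi, 7-day control set to 1) of Cpn60a and Cpn60b against days of seed aging. Points are the 3 biological replicates of NO-treated (red) and control axes (grey), and black bars are the mean ± SD; both genes are lowest at 14 days, and at 21 days Cpn60a is back near 1 while Cpn60b lies between 0.549 and 0.711.

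Ordered by level, Cpn60a was highest in control axes at 21 days, followed by NO-treated axes at 21 days, control axes at 7 days and NO-treated axes at 7 days, and each neighbour in this order overlapped the next. NO-treated axes at 14 days came next and control axes at 14 days last, and these 2 groups overlapped neither each other nor the group above. Cpn60b was highest in control axes at 7 days, apart from all others. Control axes at 21 days, NO-treated axes at 7 days and NO-treated axes at 21 days followed with overlapping ranges. NO-treated and control axes at 14 days were lowest and overlapped each other.

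The 14-day minimum did not depend on the reference gene in control axes, and the comparison of 21 with 7 days did. In control axes the log2 change at 14 against 7 days lay between -2.01 and -0.95 for Cpn60a and between -2.11 and -1.05 for Cpn60b over all alternatives, each called. On the deposited values that are set to about 1 in the 7-day control, Cpn60a stood at 0.285, 0.237 and 0.243 at 14 days and at 0.824, 0.711 and 0.729 at 21 days. The 14-day decrease was deeper there than on the re-derived scale (log2 changes of -1.98 for Cpn60a and -1.92 for Cpn60b), and near that of the cycles without any reference gene (-2.01 for Cpn60a and -2.11 for Cpn60b). For Cpn60b these deposited values were 0.268, 0.252 and 0.271 at 14 days and 0.529, 0.485 and 0.422 at 21 days.

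For Cpn60a at 21 against 7 days in control axes, this deposited scale gave a log2 change of -0.41 (adjusted p = 0.00636), Sar1 alone -0.24 (adjusted p = 0.204), no reference gene -0.42 (adjusted p = 0.00498), Pdi alone 0.41 (adjusted p = 0.0163) and centring on the 18 genes 0.56 (adjusted p = 5.4e-05). Cpn60a was thus called lower without a reference gene and on the deposited 7-day scale, which nearly coincide, higher by the test when centred and against Pdi, and not called with Sar1 alone or the mean of both reference genes. Cpn60b was below its 7-day control level on each of these scales, though not called when centred. In NO-treated axes, the 14-day decrease from 7 days was not called with Pdi alone, at -0.24 for Cpn60a (adjusted p = 0.148) and -0.23 for Cpn60b (adjusted p = 0.163).

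**Figure D3:**
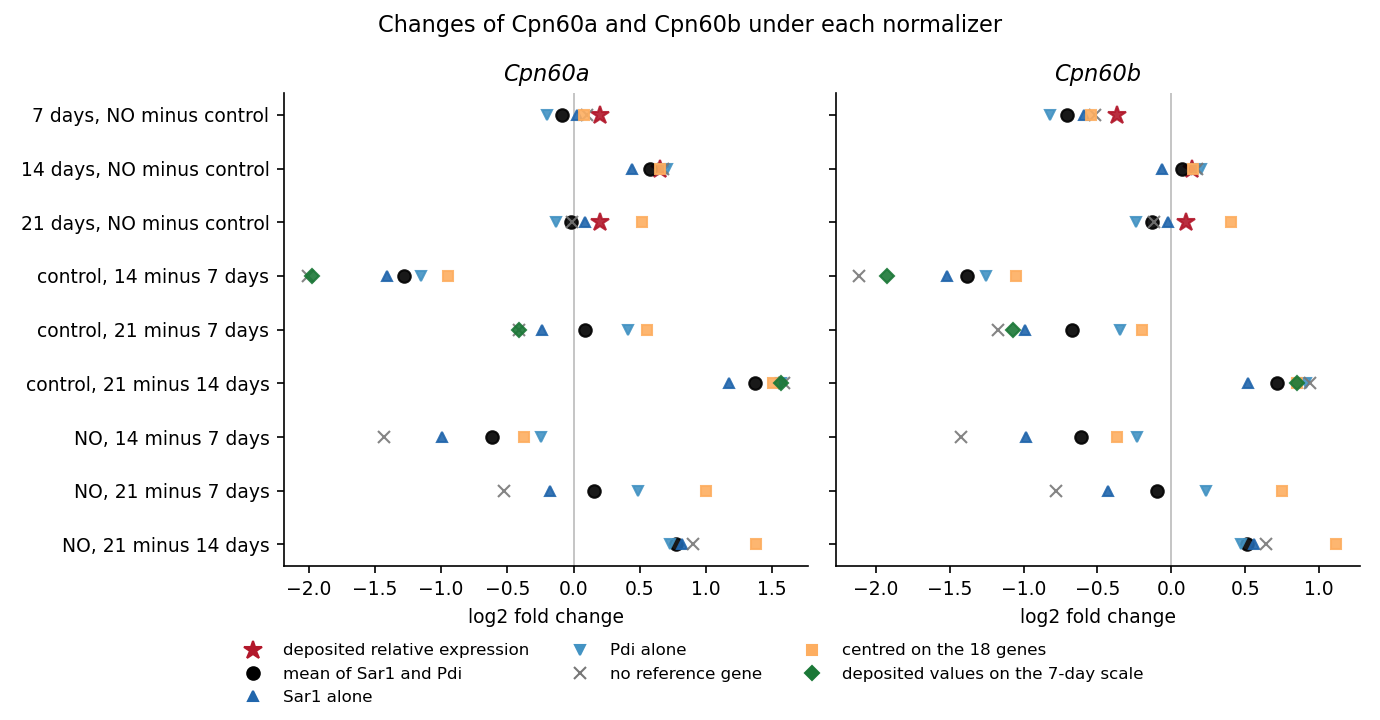
Log2 fold change (x axis) of Cpn60a and Cpn60b in each comparison (y axis) under each normalizer, shown by marker; the NO comparisons rest on the deposited relative expression (red star), and the comparisons of days on the mean of Sar1 and Pdi (black circle). At 14 days the NO effect on Cpn60a is above 0 under each normalizer, the 14 minus 7 day changes are all below 0, and the change of Cpn60a at 21 minus 7 days lies on either side of 0.

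The third comparison was the ratio of Cpn60a to Cpn60b within each sample, which needs no reference gene. Only changes of the ratio are read, since its level depends on how well each primer pair amplifies, and it is given as log2 with the mean 7-day control set to 0. The changes take both assays to amplify equally, and unequal amplification, which would alter them too, was not tested. The ratio was higher with NO after 7 and 14 days of aging, and in control axes it differed between the aging times, with the highest values at 21 days.

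At 7 days the log2 ratio was 0.92, 0.37 and 0.57 in NO-treated axes, against 0.012, 0.038 and -0.050 in control axes. At 14 days it was 0.45, 0.62 and 0.76 in NO-treated axes, against 0.25, 0.055 and 0.0050 in control axes. At both times every NO-treated sample was above every control. At 21 days the log2 ratio was 0.84, 0.87 and 0.91 in NO-treated axes, against 0.74, 0.64 and 0.90 in control axes, and the groups overlapped.

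The difference between NO-treated and control axes was 0.62 at 7 days, 0.51 at 14 days and 0.11 at 21 days on the log2 scale, or 1.54, 1.42 and 1.08 times. At 21 days it was 0.050 without control replicate 2 and 0.18 without control replicate 3. Within 1 aging time the exact two-sided permutation test gave p = 0.1, 0.1 and 0.3 (0.15, 0.15 and 0.3 after Benjamini-Hochberg adjustment over the 3 times), where 0.1 is the smallest p that 3 against 3 samples allow. Over the 3 aging times together, with labels exchanged within a time only, the mean difference was 0.41 and the exact permutation p was 7.5e-04 over 8000 relabellings. It stayed between 0.36 and 0.45 without any single sample.

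In a limma fit with Cpn60b as the normalizer of the 17 other genes, which was chosen after seeing the data and in which Cpn60a is the ratio, the NO difference was called at 7 days (adjusted p = 2.6e-04) and at 14 days (adjusted p = 0.00407), and not at 21 days (95% interval -0.19 to 0.41, adjusted p = 0.521). Of these 17 genes, 94.1% were called at 7 days, 47.1% at 14 days and 47.1% at 21 days, so that at 7 days nearly every gene differed relative to Cpn60b. The NO effect on the ratio at 21 days was lower than at 7 days by 0.51 (log2 difference -0.51, SE 0.21, limma adjusted p = 0.0306, 70.6% of genes called). It was -0.39 between 21 and 14 days (95% interval -0.82 to 0.034, adjusted p = 0.109, 58.8% called) and -0.11 between 14 and 7 days (95% interval -0.54 to 0.31, adjusted p = 0.597, 88.2% called).

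Over aging, the ratio differed between the 3 times in control axes (exact permutation test of the F statistic over 1680 relabellings, p = 0.0107), where the means were 0 ± 0.0453 at 7 days, 0.10 ± 0.130 at 14 days and 0.76 ± 0.133 at 21 days (SD, n = 3 each). All 21-day controls were above those of both earlier times, with mean differences of 0.76 against 7 days and 0.66 against 14 days, each with an exact permutation p of 0.1 and 0.2 after adjustment over the 6 pairs of times. From the cycles, these differences are the same under each normalizer, since the reference cancels. On the deposited 7-day scale the ratio changed by other amounts. There Cpn60a and Cpn60b changed by -0.41 and -1.07 at 21 against 7 days, and by -1.98 and -1.92 at 14 against 7 days.

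In NO-treated axes the means were 0.62 ± 0.276 at 7 days, 0.61 ± 0.157 at 14 days and 0.87 ± 0.0327 at 21 days (SD, n = 3 each), and the exact permutation test over the 3 times gave p = 0.246. The 21-day samples exceeded the 14-day ones without overlap, with a mean difference of 0.26 (exact permutation p = 0.1, 0.2 adjusted). Without NO replicate 1 of 7 days, whose log2 ratio was 0.92, the largest difference between the times was 0.40 instead of 0.26, with an exact permutation p of 0.0536. The ranges of NO-treated axes at 7 and at 14 days both overlapped that of control axes at 21 days.

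**Figure D4:**
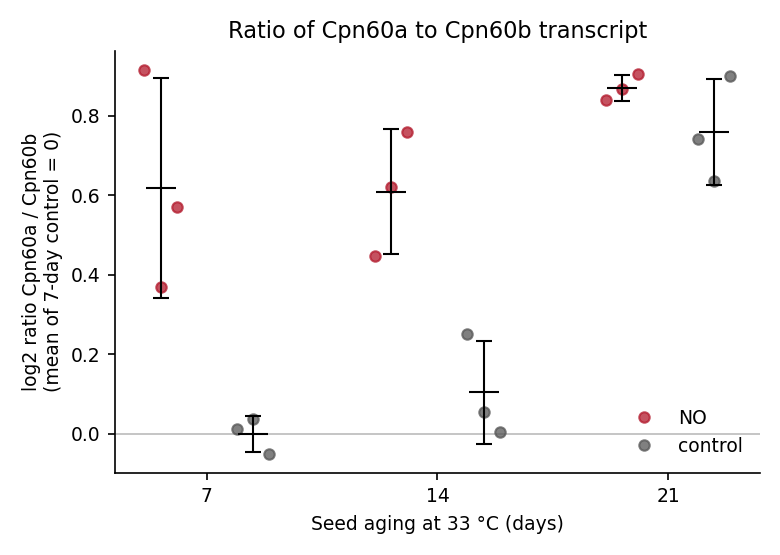
Log2 ratio of Cpn60a to Cpn60b transcript (mean of the 7-day control set to 0) against days of seed aging, from the cycles of both genes in 1 sample. Points are the 3 biological replicates of NO-treated (red) and control axes (grey), and black bars are the mean ± SD; NO-treated samples are above all controls at 7 and 14 days, and at 21 days both groups lie between 0.64 and 0.91.

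The genes whose cycles ran most nearly in parallel with each chaperonin gene over the 18 samples were found by the SD of the cycle difference, which also needs no reference gene. The 2 chaperonin genes were each other's nearest, with an SD of 0.359 cycles. For Cpn60a the next were Saur, a small auxin up RNA gene, at 0.446 cycles and Lea2b, of the late embryogenesis abundant proteins, at 0.510 cycles, and for Cpn60b the same 2 genes followed at 0.488 and 0.541 cycles. All these genes were read from the same cDNA of each sample, and no test is attached to the likeness. Within the 9 control samples the gene nearest to Cpn60a was instead Tor, the growth-regulating kinase, at 0.190 cycles, and Cpn60b came second at 0.369 cycles. Over the 9 NO-treated samples the chaperonin pair was again closest, at 0.205 cycles.

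The list of mitochondrial-type chaperones holds Cpn60a, Cpn60b, Hsp70c and ClpB4. By the limma test of the NO effect, 2 of the 4 were called higher and 1 lower at 7 days, 2 higher and none lower at 14 days, and 1 higher and 1 lower at 21 days, where 33.3%, 44.4% and 44.4% of all 18 genes were called. The members not called were Cpn60a at 7 days (log2 fold change 0.20), Cpn60b (0.14) and ClpB4 (-0.051) at 14 days, and Cpn60a (0.20) and Cpn60b (0.10) at 21 days. The median log2 fold change of the 4 was 0.37, 0.40 and 0.15 at 7, 14 and 21 days, beside medians of 0.12, -0.045 and -0.062 over all 18 genes. The changes of Hsp70c, whose Arabidopsis match is a mitochondrial Hsp70 that helps to pull proteins through the inner membrane, were much larger than those of the chaperonins. Its relative expression was 1.63 ± 0.0402 with NO and 1.01 ± 0.169 in the control at 7 days, 10.4 ± 0.600 with NO and 1.01 ± 0.178 in the control at 14 days, and 0.418 ± 0.0456 with NO and 1.0 ± 0.0335 in the control at 21 days (SD, n = 3 each). Those of ClpB4, a disaggregase, were called higher at 7 days (log2 fold change 0.54, limma adjusted p = 6.7e-04) and 21 days (log2 fold change 0.37, limma adjusted p = 0.0126), and not at 14 days (log2 fold change -0.051, limma adjusted p = 0.707). The 14-day NO call of Cpn60a thus came with a call in Hsp70c and without one in Cpn60b or ClpB4.

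Over aging in control axes, 3 of these 4 genes were called lower and 1 higher by limma at 14 against 7 days, where 77.8% of all 18 genes were called (median log2 fold change of the 4 -1.33, against -0.041 over all 18 genes). At 21 against 14 days 3 were called higher and 1 lower, where 88.9% of the 18 genes were called (median 1.04, against -0.20). With most genes called in both steps, the number of calls in the list is near that background. Hsp70c fell by 4.64 and rose by 1.68 in these steps, in the same directions as both chaperonin genes (adjusted p = 3.6e-22 and 2.8e-11 from limma), and ClpB4 moved the other way, by 0.30 and -1.25 (adjusted p = 0.0368 and 1.7e-09 from limma). Of the 6 other chaperones, 4 were called higher and 1 lower at 14 against 7 days, and 1 was higher and 4 were lower at 21 against 14 days. Of the 8 genes that are not chaperones, 2 were called higher and 3 lower at 14 against 7 days, and 3 higher and 4 lower at 21 against 14 days. The difference between these lists was not tested.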

How the data were processed

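RT-qPCR was made by the authors with SYBR Green from 200 ng of total RNA a sample, with 3 technical repetitions. The deposited quantification cycles (Cq) and the deposited relative expression, a ratio that the authors normalized to 2 reference genes and set to about 1 in each day's control, were used. A second set of deposited ratios of the control axes is set to about 1 at 7 days; the authors' methods name 2 reference genes for all expression levels, but for Cpn60a and Cpn60b these ratios lie close to the changes in cycles without a reference gene. The file of fold changes, which holds the authors' own comparisons, was not used. Groups came from the labels.

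NO comparisons were fitted on log2 relative expression and aging courses on log2 levels from the cycles (2-fold a cycle against the mean of Sar1 and Pdi) with limma 3.58.1 in R 4.3.3, two-sided, over 18 samples, with Benjamini-Hochberg adjustment over 18 genes. The ratio of the 2 genes, a single value, took exact permutation tests (numpy and scipy 1.17.1). The limma fit was tried on simulated data with independent genes, for the NO contrast at 14 days only. The permutation tests over the 3 aging times were tried on simulated normal values. The other contrasts and the fit with Cpn60b as the normalizer were not simulated. Nothing but group membership entered the fits. Named genes were Cpn60a and Cpn60b, for likeness the 3 genes with the smallest SD of the cycle difference, and the mitochondrial-type list by its Arabidopsis matches. The members and lists were chosen with earlier results of these data known. The number of replicates limits the precision.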

Additional observations from a re-analysis of the deposited data

Results flagged for a closer look

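The NO effect was called different between aging times in 3 interaction tests of the chaperonin genes and in 1 of their ratio. Of the 18 genes, 61.1% were called at 14 minus 7 days and 50.0% at 21 minus 14 days. The 3 calls of the chaperonin genes were lost with Sar1 alone and without some single samples. They were kept from the cycles against Sar1 and Pdi, with Pdi alone and with no reference gene. Centred on the 18 genes, both calls at 14 minus 7 days were kept and that at 21 minus 14 days was lost. For Cpn60a the NO effect was higher at 14 than at 7 days by 0.45 on the log2 scale, and its difference at 21 minus 14 days was -0.45. For Cpn60b it was higher at 14 than at 7 days by 0.51. The NO effect on the ratio of Cpn60a to Cpn60b at 21 minus 7 days was -0.51, in the limma fit with Cpn60b as the normalizer, which was chosen after seeing the data and in which 70.6% of the genes were called. The groups of 3 samples are too small to screen for a single outlying sample.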

How the results depend on the processing

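Each gene comparison was refitted with other normalizers, without moderation, with a replicate block and without each sample in turn, and, where it applied, with the compared groups only, on untransformed values, with the methods' test and at 1.9-fold a cycle. All values are log2 differences. Over 24 gene comparisons, 423 of 432 values without 1 sample and 187 of 210 other values kept their direction, and 406 and 165 kept both direction and call. For the ratio, 88 of 90 and 38 of 39 kept their direction. The NO call of Cpn60a at 14 days, the decrease of both genes in control axes at 14 days and the increase of both at 21 against 14 days in either treatment were kept under every alternative run. Another normalizer shifts all genes by 1 amount, which was largest for centring on the 18 genes in NO-treated axes at 21 against 7 days (0.84) and next for no reference gene at 14 against 7 days (-0.81), so changes that turn together are not separate results. The cause of the changes listed here was not tested.

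For NO at 7 days, Cpn60b was -0.36 on untransformed values and with the methods' test after adjustment, not called in either, and -0.46 to -0.26 without single samples. From the cycles it lay between -0.82 (Pdi alone) and -0.52 (no reference gene), called under each normalizer. Cpn60a was -0.088 from the cycles and -0.20 with Pdi alone. For NO at 14 days, Cpn60b was -0.061 with Sar1 alone. For NO at 21 days, Cpn60a was -0.021 from the cycles, -0.13 with Pdi alone, -0.0089 with no reference gene and 0.52 centred on the 18 genes. Cpn60b was -0.13 from the cycles, -0.024 with Sar1 alone, -0.24 with Pdi alone, -0.12 with no reference gene and 0.41 centred on the 18 genes. The difference in NO effect at 21 minus 7 days for Cpn60a was 0.068 from the cycles, 0.061 with Sar1 alone, 0.074 with Pdi alone and 0.44 centred, and -0.059 to 0.096 without single samples. At 21 minus 14 days, that for Cpn60b was 0.037 with Sar1 alone, 0.26 centred, and -0.14 to 0.062 without single samples.

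In control axes at 21 against 7 days, Cpn60a was -0.24 with Sar1 alone, 0.41 with Pdi alone, -0.42 with no reference gene, 0.56 centred, -0.41 on the deposited 7-day scale and -0.021 to 0.22 without single samples, and Cpn60b was -0.20 centred. In NO-treated axes at 14 against 7 days, Pdi alone gave -0.24 for Cpn60a and -0.23 for Cpn60b, neither called. At 21 against 7 days, Cpn60a was -0.17 with Sar1 alone, 0.49 with Pdi alone, -0.53 with no reference gene, 1.0 centred and 0.0014 to 0.32 without single samples, and Cpn60b was -0.43, 0.24, -0.78 and 0.75 in the same order and -0.23 to 0.020 without single samples. The ratio in NO-treated axes at 14 minus 7 days, -0.0089, was 0.050 with medians and -0.13 to 0.14 without single samples.

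Same-numbered NO-treated and control samples showed no steady shared deviation. Their correlations were -0.33 to 0.49 in the deviations of relative expression and -0.70 to 0.30 in those of the cycles. Whether the replicate numbers mark paired samples cannot be told from 3 samples a group. With the replicate block, the NO effect on Cpn60b at 21 minus 7 days stayed at 0.47 and became called (adjusted p = 0.0453 from limma), and 6 genes were called in that contrast instead of 3. No other call of Cpn60a or Cpn60b changed with the block.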
